A study of Mus musculus with 24 samples.

Results

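The genes described here are 9 of the enzymes and binding proteins that write, copy, read and remove cytosine methylation in mouse DNA: Dnmt1, Dnmt3a, Dnmt3b, Uhrf1, Uhrf2, Mbd1, Mbd2, Mbd4 and Tet2. They were chosen by name, with earlier results of these data known. Every array probe that carries such a name was taken, which gave 18 probes for the 9 genes among 16489 genes tested in all. No probe is named Tet2 on this array design, and the 2 probes used for Tet2 are named E130014J05Rik there and were assigned by their RefSeq accession. The filter on dim signals required a probe to exceed background clearly, by the scanner software's flag, on 3 or more arrays of 1 or more groups; all 18 probes passed it, and 17 of the 18 were well above background on all 24 arrays. Dnmt1, Dnmt3b and Mbd4 have 1 probe each, Uhrf1, Mbd2 and Tet2 have 2 each, and Dnmt3a, Uhrf2 and Mbd1 have 3 each. The brightest probe represented its gene in the tests below, and the other probes are given beside it.

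RNA was measured on 24 single-colour Agilent arrays in 6 groups of 4. The cells came from female C57BL/6 mice aged 6 or 7 weeks that were either wild type (WT) or carried a conditional knockout (CKO) of Trim28, a chromatin corepressor, which the series title calls T cell-specific. The Cre driver is not given in the sources used here, and nothing says that the 4 arrays of a group came from separate animals, so the p-values measure the spread between these arrays. In each genotype 3 states were profiled: naive T cells sorted as CD4+CD62+CD25- and left unstimulated, the same naive cells after 13 h on plates coated with antibodies to CD3 and CD28, and Treg (regulatory T cells) sorted as CD4+CD62+CD25+. The treatment label of the WT Treg samples reads unstimulated and that of the CKO Treg samples reads TCR-stimulated, while the design text speaks of stimulating naive cells only. Genotype and treatment therefore cannot be told apart in the Treg comparison if that label is right.

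As background, DNA methylation is laid down on unmethylated CpG sites by the de novo methyltransferases Dnmt3a and Dnmt3b and is copied after replication by the maintenance methyltransferase Dnmt1. Uhrf1 binds the hemimethylated CpG sites that replication leaves and brings Dnmt1 to them, and Uhrf2 is its paralogue. Mbd1, Mbd2 and Mbd4 carry a methyl-CpG-binding domain, and Mbd4 is also a glycosylase that removes thymine from G/T mismatches at CpG sites. Tet2 oxidises methylcytosine, the start of its removal. In T cells Dnmt1 and Dnmt3a are known for keeping cytokine genes silent, and Tet2 and Uhrf1 are known for their parts at the Foxp3 locus of Treg.

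Levels below are log2 of the processed signal minus the array's 75th percentile, so 0 is a signal equal to that percentile, and a level may be compared between arrays for 1 probe but not between probes. The array's 75th percentile ranged from 31.3 to 371.8 signal units and was lowest in CKO Treg (31.3 to 115.5), where 43.0% to 56.9% of probes were well above background, against 48.3% to 61.2% in the other groups. Trim28 itself was lower in CKO than in WT in every state without overlap, by 1.51, 2.68 and 1.57 on the log2 scale in unstimulated, stimulated and Treg cells; whether its probe lies in the deleted part is not known here. The Treg markers Foxp3, Il2ra, Ctla4 and Ikzf2 were all higher in Treg than in unstimulated naive cells in both genotypes. They also moved with genotype in naive cells: their summed signal was 1.27 to 1.63 on CKO unstimulated arrays and 0.58 to 0.96 on WT ones, with 3 of the 4 called higher in CKO, and 2 of the 4 were called higher after stimulation. Summed signal of 10 B cell markers ran from 17.9 to 61.4 on CKO unstimulated arrays and from 7.25 to 27.7 on WT unstimulated arrays, from 1.75 to 7.05 against 0.54 to 3.10 after stimulation, and from 4.55 to 13.0 against 4.04 to 9.84 in Treg. The corresponding sums of 9 myeloid and dendritic cell markers were 28.8 to 69.0 against 18.7 to 65.9, 1.79 to 14.3 against 0.98 to 4.99, and 11.2 to 35.7 against 9.67 to 29.2. For 7 markers of CD8, NK and unconventional T cells they were 16.7 to 37.3 against 12.3 to 21.4, 6.67 to 10.6 against 5.75 to 9.05, and 5.32 to 9.93 against 6.28 to 11.2. The part of these markers in the results was not tested. In such bulk samples, fewer cells of a type and less RNA per cell cannot be told apart.

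**Figure D1:**
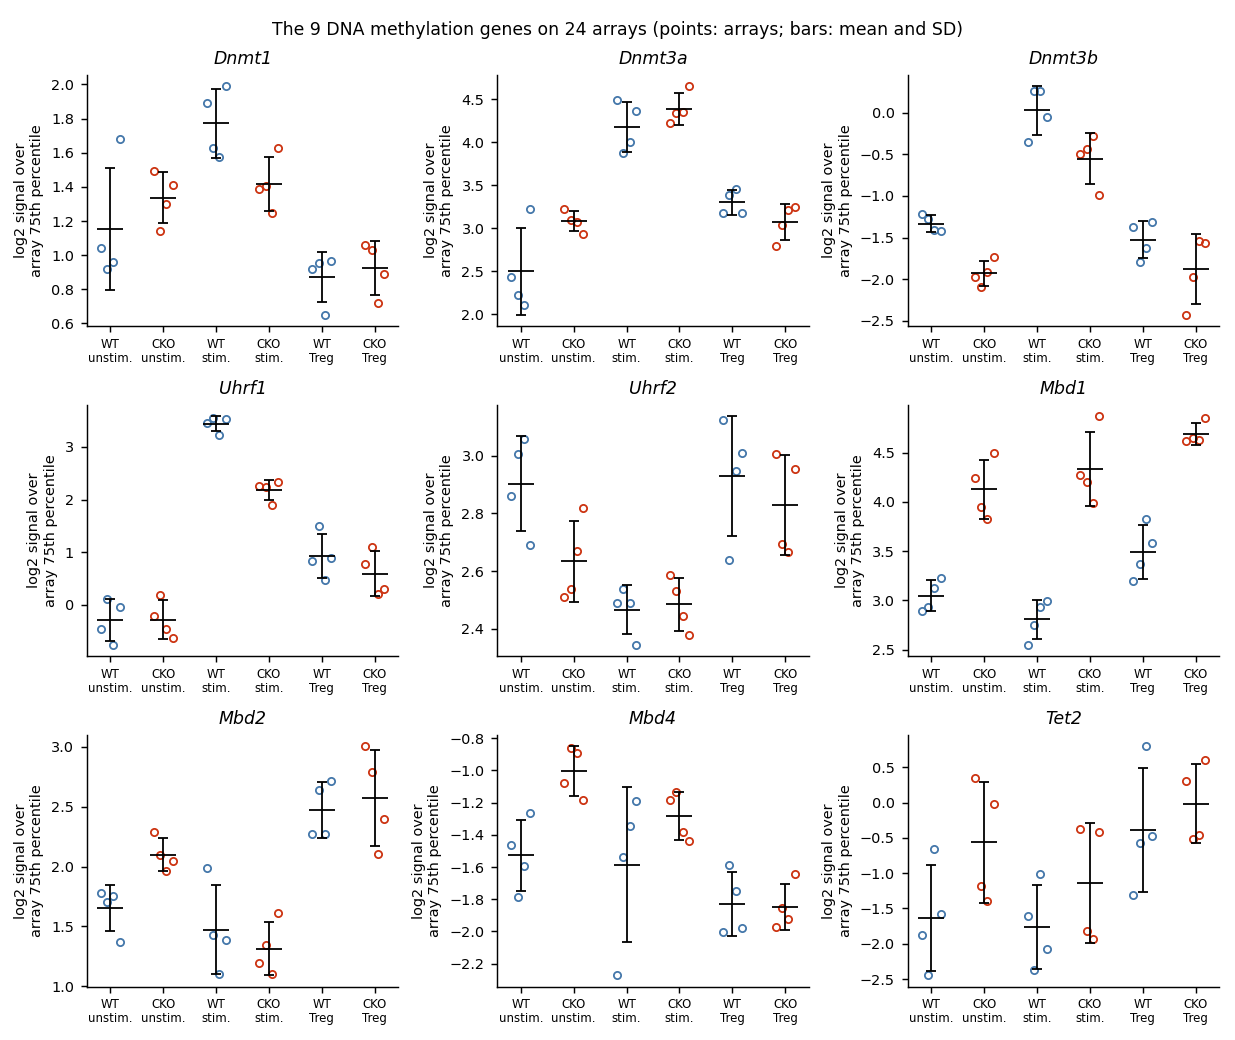
Level of each of the 9 genes on the 24 arrays, as log2 signal over the array's 75th percentile, in WT (blue) and CKO (red) cells of the 3 states; points are arrays and bars show the mean and SD of 4 arrays. Mbd1 was higher on every CKO array than on every WT array of the same state, and Uhrf1 rose from 0.20 or less on unstimulated arrays to 3.24 or more on the WT stimulated arrays and to 2.33 or less on the CKO stimulated arrays.

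The comparison of CKO with WT addresses how these genes differed between the genotypes in each state. Limma called 4 of the 9 in unstimulated naive cells (Mbd1, Dnmt3a and Mbd4 higher, Dnmt3b lower), against 18.7% of all genes called there and 7.83% called higher. In stimulated naive cells it called 3, Mbd1 higher and Uhrf1 and Dnmt3b lower, against 24% of all genes. In Treg it called Mbd1 alone, higher in CKO, against 4.31% of all genes called and 2.47% called higher. The median log2 difference over the 9 genes was 0.45, 0.02 and -0.02 in the 3 states, beside 0.01, -0.05 and 0.00 over all genes. Called here means a Benjamini-Hochberg adjusted p under 0.05 over all 16489 genes, and each comparison between groups in the text sets 4 arrays against 4.

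**Figure D2:**
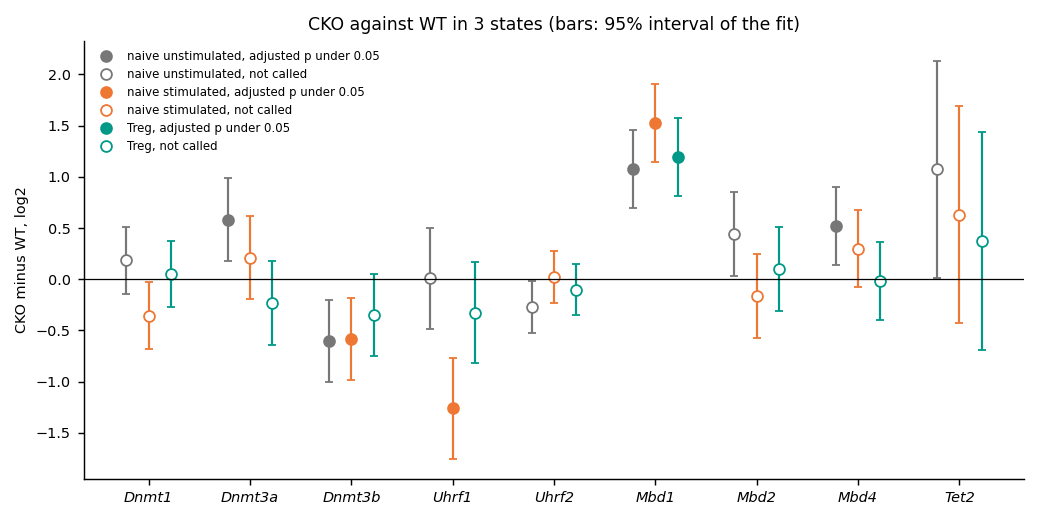
Difference between CKO and WT (log2, vertical axis) for each of the 9 genes in unstimulated naive cells (grey), stimulated naive cells (orange) and Treg (green). Bars are 95% intervals from the limma SE and 18 residual degrees of freedom, before any adjustment. Filled points passed the adjusted threshold. Mbd1 was called in all 3 states and Uhrf1 only in the stimulated state.

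Mbd1, a reader that binds methylated CpG sites and, through a CXXC domain, unmethylated ones, had the largest difference between the genotypes among the 9 in each state. In unstimulated cells Tet2 was close behind (1.07 ± 0.51 beside 1.08 ± 0.18) but was not called. On the WT unstimulated arrays the Mbd1 level was 2.90, 2.93, 3.13 and 3.23, and on the CKO unstimulated arrays 4.24, 3.95, 3.83 and 4.49. After stimulation the WT arrays gave 2.55, 2.75, 2.93 and 3.00 and the CKO arrays 4.28, 4.20, 3.99 and 4.87. In Treg the WT arrays gave 3.19, 3.37, 3.83 and 3.58 and the CKO arrays 4.62, 4.65, 4.62 and 4.85. In each state the lowest CKO array lay above the highest WT array, while 20.5%, 25.6% and 8.33% of all genes had groups that did not overlap, in either direction. Mbd1 was 2.12-fold higher in CKO in the unstimulated state (log2 difference 1.08 ± 0.18 SE, limma adjusted p = 0.00052), 2.88-fold after stimulation (1.53 ± 0.18, limma adjusted p = 7.22e-06) and 2.29-fold in Treg (1.19 ± 0.18, limma adjusted p = 0.000187).

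CKO and WT arrays of the same replicate number were hybridised on the same slide, so the difference was also read within slides. It was above 0 on all 12 slide and state combinations, from 0.70 to 1.35 in unstimulated cells, 1.05 to 1.87 in stimulated cells and 0.80 to 1.43 in Treg. The 3 Mbd1 probes gave log2 differences of 0.95 to 1.08 in unstimulated cells, 1.39 to 1.99 in stimulated cells and 1.19 to 1.38 in Treg, all called. Background correction by normexp with an offset kept the sizes (1.03 and 1.22) but ended the call in unstimulated cells and in Treg (limma adjusted p = 0.0701 and 0.0915). That offset was 50 signal units. The array's 75th percentile of processed signal was 31.3 to 115.5 in CKO Treg and 53.9 to 200.2 in WT Treg. In unstimulated naive cells it was 165.0 to 293.3 in WT and 170.9 to 265.6 in CKO. The part of the offset in the normexp results was not tested. The genotype difference did not pass the test of a change with stimulation (0.44 ± 0.26, limma adjusted p = 0.43) or with cell type (0.11 ± 0.26, limma adjusted p = 0.867). The other Mbd1 probes disagreed in size for stimulation, at 1.04 ± 0.29 (limma adjusted p = 0.0588) and 0.39 ± 0.25 (limma adjusted p = 0.503). With cell type they gave 0.37 and 0.38, and none of these values was called.

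The gene next to Mbd1 in the RefSeq annotation of GRCm38.p6 was also called higher in CKO in all 3 states, with a size that depended on the background correction. The table of genes was searched for the 4 measured genes on each side of every one of the 9, a look that was chosen after the values were seen. Cfap53, a cilia- and flagella-associated protein gene and the next protein-coding gene to Mbd1 on chromosome 18, stood at -5.67, -5.91, -5.36 and -4.43 on the WT unstimulated arrays and at -0.97, -1.90, -2.05 and -0.80 on the CKO ones. Its WT signal was well above background on 1 of 4 arrays in the unstimulated state, on 2 of 4 after stimulation and on 4 of 4 in Treg. Its CKO signal was well above background on all arrays. The WT naive levels are therefore near the floor of the measurement, and the fold is poorly fixed. The Cfap53 difference was 3.91 ± 0.45 (limma adjusted p = 6.32e-06) in unstimulated cells, 3.98 ± 0.45 in stimulated cells and 3.32 ± 0.45 in Treg. Under normexp the 3 differences were 1.30, 1.55 and 1.08, and the last was not called (limma adjusted p = 0.149) and lay below that of Mbd1 (1.22).

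Cxxc1, which encodes a CpG-binding protein and is the nearest measured gene on the other side of Mbd1, was not called in any state (0.10 ± 0.15, 0.33 ± 0.15 and 0.46 ± 0.15). Myo5b, beyond Cfap53, had differences of 1.76, 1.43 and 1.77 with an SE of 0.82 and was not called. Of the 8 neighbours of Mbd1, Cfap53 was the only one called higher in any of the 3 states. Ska1, a spindle and kinetochore gene, was lower in stimulated CKO cells (-2.25 ± 0.56, limma adjusted p = 0.00742; well above background on 4 WT and 3 CKO arrays), and Elac1 and Me2 were lower in the unstimulated state. Around the other 8 genes, at most 2 of 8 neighbours were called higher in a state, and at most 2 lower except around Mbd2. There 4 of 8 were lower in unstimulated cells (10.9% of all genes were), among them Elac1 and Me2, which are neighbours of Mbd1 as well.

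**Figure D3:**
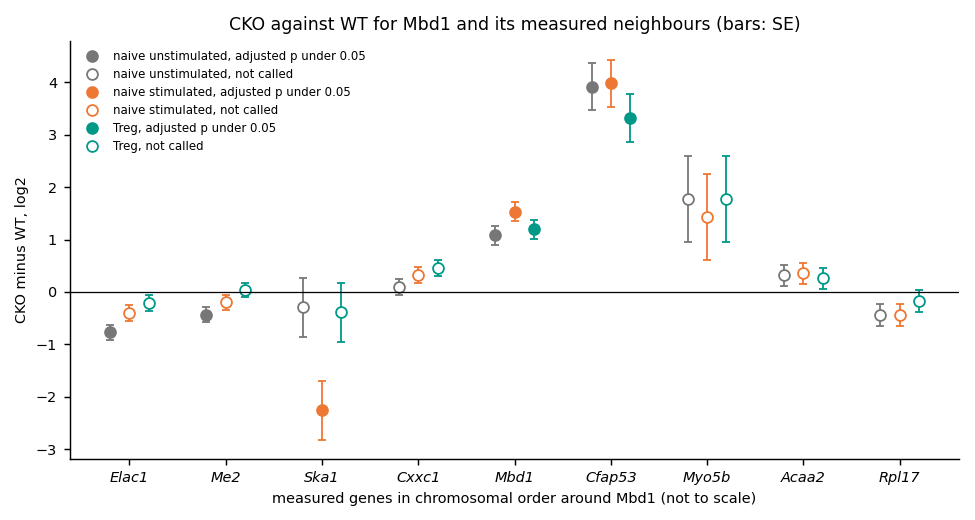
Difference between CKO and WT (log2, vertical axis) for Mbd1 and the 4 measured genes on each side of it, in chromosomal order but not to scale, in unstimulated naive cells (grey), stimulated naive cells (orange) and Treg (green); bars are SE and filled points passed the adjusted threshold. Mbd1 (1.08, 1.53 and 1.19) and Cfap53 (3.91, 3.98 and 3.32) were called higher in all 3 states, while Cxxc1 on the other side was not called.

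Across states Mbd1 changed less. Its level was higher in Treg than in unstimulated naive cells by 0.45 ± 0.18 in WT (limma adjusted p = 0.0476) and by 0.56 ± 0.18 in CKO (limma adjusted p = 0.0263), and stimulation changed it by -0.24 ± 0.18 in WT and 0.21 ± 0.18 in CKO, neither called. Under normexp the WT Treg difference turned to -0.17 and the CKO one fell to 0.02, and neither was called. The WT call also ended without any 1 of 6 of the 8 arrays (limma adjusted p = 0.0536 to 0.165), with slide as a block (0.34, limma adjusted p = 0.0841), without the filter and with only the compared arrays fitted, and the CKO call without any 1 of 3 arrays. A second Mbd1 probe, designed on a cDNA clone, fell by 1.21 ± 0.21 with stimulation in WT (limma adjusted p = 3.13e-05), while the other 2 probes gave -0.24 and -0.01 there; in CKO it gave -0.17 ± 0.21 (limma adjusted p = 0.504). Scaling on the probes detected everywhere, quantile normalization, the authors' values and the mean of the 3 probes each gave -0.49 for the stimulation change in WT and called it.

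The question asked of stimulation was which of these genes the T cell receptor signal moved, and whether it did so alike in both genotypes. In WT naive cells 5 of the 9 were called after 13 h, against 61.9% of all genes (31.7% higher, 30.2% lower): Uhrf1, Dnmt3a, Dnmt3b and Dnmt1 rose and Uhrf2 fell. In CKO naive cells 4 were called, against 60.2% of all genes (29.7% higher, 30.4% lower): Uhrf1, Dnmt3a and Dnmt3b rose and Mbd2 fell. The share of the 9 genes called (55.6% and 44.4%) was below the share of all genes. The median log2 change over the 9 was -0.06 in WT and 0.08 in CKO, beside -0.03 and -0.08 over all genes. The 2 comparisons have no arrays in common, and the genotype difference in the response was tested as an interaction, which called 1 of the 9 (Uhrf1), against 3.42% of all genes.

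Uhrf1, the factor that brings Dnmt1 to hemimethylated sites, rose most. Its level on the WT unstimulated arrays was -0.46, 0.11, -0.76 and -0.03, and on the WT stimulated arrays 3.45, 3.55, 3.24 and 3.52. On the CKO unstimulated arrays it was -0.20, 0.20, -0.46 and -0.64, and on the CKO stimulated arrays 2.25, 2.24, 1.90 and 2.33. The unstimulated groups overlapped, every stimulated array lay above every unstimulated one (55.2% of all genes in WT and 56.9% in CKO had no overlap, in either direction), and every CKO stimulated array lay below every WT stimulated one. Stimulation raised Uhrf1 13.2-fold in WT (3.73 ± 0.24, limma adjusted p = 2.06e-11) and 5.49-fold in CKO (2.46 ± 0.24, limma adjusted p = 1.49e-08).

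In stimulated cells Uhrf1 was 2.39-fold lower in CKO than in WT (-1.26 ± 0.24, limma adjusted p = 0.00087), with differences of -1.20, -1.31, -1.19 and -1.34 within the 4 slides. In unstimulated cells the difference was 0.01 ± 0.24 (95% interval -0.48 to 0.51), and in Treg -0.33 ± 0.24 (limma adjusted p = 0.632). The interaction of genotype and stimulation was -1.27 ± 0.33 (limma adjusted p = 0.0362). That call ended without any 1 of 10 of the 16 naive arrays (limma adjusted p = 0.0611 to 0.0876) and under 4 of the other settings, among them quantile normalization (-1.05, limma adjusted p = 0.114); its sign held in each. The second Uhrf1 probe gave 3.93 for stimulation in WT, 2.70 for stimulation in CKO and -1.30 for CKO against WT in stimulated cells. Between the genotypes it gave -0.07 in unstimulated cells and -0.54 in Treg, neither called, and -1.22 in the interaction. The Uhrf1 probes correlated at r = 0.99 over the 24 arrays.

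Uhrf1 was also higher in Treg than in unstimulated naive cells. The WT Treg arrays stood at 0.84, 1.49, 0.48 and 0.89 and the CKO Treg arrays at 0.77, 1.10, 0.20 and 0.31, none below the highest unstimulated array of the same genotype (0.11 in WT and 0.20 in CKO). The difference was 1.21 ± 0.24 in WT (limma adjusted p = 0.000431) and 0.87 ± 0.24 in CKO (limma adjusted p = 0.0091). The order of Uhrf1 levels was therefore unstimulated naive, Treg, stimulated naive in both genotypes. Neighbouring groups in that order did not overlap, though in CKO the lowest Treg array and the highest unstimulated one were both at 0.20, and Treg were not tested against stimulated cells.

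The 3 genes whose profile over the 24 arrays was most like that of Uhrf1 were Dtl, Mcm10 and Pole (Pearson r = 0.98 each, a description over arrays that share groups and slides), all of them genes of DNA replication or its control. A list of 30 S phase genes, which holds Mcm10 but none of the 9, was set beside it. The list was chosen with earlier results of these data known. All 30 were called higher with stimulation in WT (median log2 change 2.20), against 31.7% of all genes. In CKO 24 were called higher and 1 lower (median 1.36), against 29.7% and 30.4% of all genes. After stimulation all 30 were called lower in CKO than in WT (median -1.06, range -2.20 to -0.69), against 12.4% of all genes. In unstimulated cells 1 of the 30 was higher in CKO (Chaf1b, 1.11 ± 0.16) and 1 lower (E2f1, -1.13 ± 0.30), against 7.83% and 10.9% of all genes. In Treg none was called by limma, against 4.31% of all genes. Replication genes at the lower end in stimulated CKO cells were Cdc6 (-2.20 ± 0.44), Mcm10 (-2.09 ± 0.39), Ccne1 (-1.70 ± 0.20) and Gins2 (-1.70 ± 0.37). The Uhrf1 difference of -1.26 lay within the range of the list. In the interaction 12 of the 30 were called lower (median -0.90), among them Chaf1b, Tk1, Gins1 and Ccne1, against 1.3% of all genes. That count was 5 under normexp and 22 with array weights. The list and Uhrf1 were lower together in stimulated CKO cells, and the part of cell cycle state in the Uhrf1 difference was not tested.

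**Figure D4:**
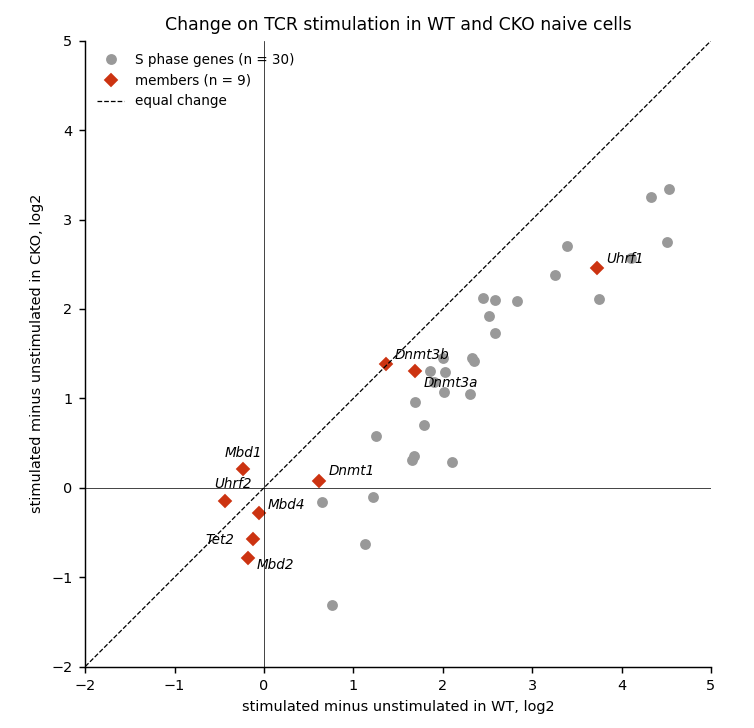
Change with stimulation (stimulated minus unstimulated, log2) in WT naive cells (horizontal axis) and CKO naive cells (vertical axis) for the 9 genes (red diamonds, named) and 30 S phase genes (grey points); the dashed line marks an equal change. Uhrf1 (3.73 in WT, 2.46 in CKO) lay below the line among the S phase genes, and Dnmt3b (1.36 and 1.38) lay on it.

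The promoter of Uhrf1 is printed here because it holds, close to the start site, a letter sequence of the kind bound by E2F factors, which control S phase genes. RefSeq (GRCm38.p6) gave promoter windows for 7 of the 9 genes (not for Mbd1 and Mbd2), each from 250 bases before to 50 after a start site. Any of 4 words, searched on both strands with overlapping matches kept (the word TTCCCGC, the first variant TTCGCGC, the next variant TTGCCGC and the last variant TTGGCGC), occurred in 9.57% of 32851 promoter windows. At least 1 window held a word in 4 of the 7 genes (Uhrf1, Dnmt1, Uhrf2 and Mbd4), in 16 of the 25 S phase genes with a window and in 10.9% of 27025 genes. The 250 bases before the first Uhrf1 start site (chr17:56303087-56303336, plus strand, 5′ to 3′) are shown with the word in capitals.
Uhrf1: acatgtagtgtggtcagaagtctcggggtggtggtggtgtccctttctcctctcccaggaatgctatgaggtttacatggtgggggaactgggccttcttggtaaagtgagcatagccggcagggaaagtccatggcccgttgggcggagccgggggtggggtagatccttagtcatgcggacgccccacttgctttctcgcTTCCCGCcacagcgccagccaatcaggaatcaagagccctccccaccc

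The word starts 48 bases before the start site. Words also start at -57 from the start site in Uhrf2 and, as the reverse complement, at -2 in Mbd4. Neither of these genes was called higher with stimulation. The other Uhrf1 window and Dnmt1 window 3 hold 1 and 3 words, shown with up to 11 bases on each side, again in the direction of the gene and with the word, or its reverse complement, in capitals.
Uhrf1, window 2 (chr17:56304118-56304146): ccgagtcgggtTTCGCGCgcccaggcgtc
Dnmt1, window 3 (chr9:20952825-20952853): ggtttccgcgcGCGCGAAaaagccggggt
Dnmt1, window 3 (chr9:20952764-20952792): gcaagatgccaGCGCGAAcagctccagcc
Dnmt1, window 3 (chr9:20952574-20952600): cggggcagcgtTTGGCGCgggctgtgc
The windows of Dnmt3a, Dnmt3b and Tet2 hold none of the 4 words. In CpG content the first windows of these genes (46, 30 and 57 CpG in 300 bases, more than in 98.4%, 88.3% and 99.8% of all windows) and Uhrf1 window 2 and Dnmt1 window 3 (33 each, more than in 91.4%) stood above Uhrf1 window 1 (12, more than in 60.4%). A match is a description of letters and says nothing on binding in these cells.

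Dnmt1, the maintenance methyltransferase, rose with stimulation in WT and did not pass the test in CKO. Its levels were 1.04, 0.92, 0.96 and 1.68 on the WT unstimulated arrays and 1.89, 1.63, 1.58 and 1.99 on the WT stimulated ones, where replicate 4 of the unstimulated group fell among the stimulated values. On the CKO arrays they were 1.49, 1.14, 1.30 and 1.41 before and 1.39, 1.40, 1.25 and 1.63 after, with the groups overlapping throughout. The rise was 1.54-fold in WT (0.62 ± 0.15, limma adjusted p = 0.00148) against 0.08 ± 0.15 in CKO (limma adjusted p = 0.671; 95% interval -0.24 to 0.40).

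The difference between those changes was -0.54 ± 0.22 and was not called (limma adjusted p = 0.216). Without WT unstimulated replicate 4 it was -0.72 and was called (limma adjusted p = 0.0273), and the CKO against WT difference in unstimulated cells became 0.36 (limma adjusted p = 0.0473) from 0.18 ± 0.15. In stimulated cells Dnmt1 was lower in CKO by -0.35 ± 0.15 (limma adjusted p = 0.0973), from -0.22 to -0.50 within the 4 slides. In Treg it stood at 0.92, 0.95, 0.65 and 0.97 in WT and 1.06, 1.03, 0.72 and 0.89 in CKO. These were the lowest group means of Dnmt1, 0.28 ± 0.15 below unstimulated cells in WT (limma adjusted p = 0.137) and 0.41 ± 0.15 below in CKO (limma adjusted p = 0.0505). The CKO result depended on the setting. It was not called in 5 of 12 other settings (limma adjusted p up to 0.155) and was called lower in the rest, among them age as a covariate (limma adjusted p = 0.00952) and slide as a block (limma adjusted p = 0.0497).

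Dnmt3a, a de novo methyltransferase, rose with stimulation in both genotypes. On the WT arrays it stood at 2.43, 2.22, 2.11 and 3.22 before and 4.49, 3.87, 4.00 and 4.36 after. On the CKO arrays it stood at 3.22, 3.09, 3.07 and 2.93 before and 4.22, 4.34, 4.35 and 4.65 after. No stimulated array overlapped an unstimulated one. The rise was 3.21-fold in WT (1.68 ± 0.19, limma adjusted p = 1.62e-07) and 2.48-fold in CKO (1.31 ± 0.19, limma adjusted p = 5.98e-06), and the 3 probes gave 1.61 to 1.68 in WT and 1.14 to 1.31 in CKO.

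The higher level of Dnmt3a in CKO unstimulated cells (0.58 ± 0.19, limma adjusted p = 0.0414) was less firm. The groups overlapped through WT replicate 4, whose slide gave -0.29 where the other slides gave 0.79 to 0.97. The other 2 probes gave 0.42 and 0.50 and were not called (limma adjusted p = 0.0932 and 0.0602). The call ended without any 1 of 6 arrays, without slide 1, under normexp, without the filter on dim probes and when only these 8 arrays were fitted; without WT replicate 4 the difference was 0.83 (limma adjusted p = 0.00115). After stimulation it was 0.21 ± 0.19 and in Treg -0.23 ± 0.19, neither called.

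Dnmt3b, the other de novo methyltransferase, also rose with stimulation in both genotypes. It stood at -1.22, -1.28, -1.41 and -1.42 on the WT unstimulated arrays and -0.36, 0.26, 0.26 and -0.05 on the WT stimulated ones. The CKO arrays gave -1.97, -2.10, -1.92 and -1.74 before and -0.50, -0.44, -0.28 and -0.99 after. The rise was 2.57-fold in WT (1.36 ± 0.19, limma adjusted p = 2.52e-06) and 2.60-fold in CKO (1.38 ± 0.19, limma adjusted p = 2.52e-06), with an interaction of 0.02 ± 0.27 (95% interval -0.55 to 0.59).

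Dnmt3b was lower in CKO than in WT by -0.60 ± 0.19 before stimulation (limma adjusted p = 0.0343; no overlap) and by -0.58 ± 0.19 after it (limma adjusted p = 0.0332; the groups overlapped). The within-slide differences were below 0 on all 8 of these slide and state combinations, from -0.32 to -0.82 before and -0.14 to -0.94 after. Under normexp the differences were -0.27 and -0.40 and neither was called (limma adjusted p = 0.604 and 0.236). Both calls were also lost without the filter and under scaling on the probes detected everywhere (-0.52 and -0.42, limma adjusted p = 0.0897 and 0.155), the unstimulated one without slide 1, and the stimulated one under quantile normalization, with the authors' values and with only the compared arrays fitted. Leaving out any 1 of 6 unstimulated or 5 stimulated arrays ended the call. In Treg the difference was -0.35 ± 0.19 (limma adjusted p = 0.454), with WT arrays at -1.37, -1.80, -1.62 and -1.32 and CKO arrays at -2.43, -1.97, -1.54 and -1.57. Dnmt3b was well above background on 23 of the 24 arrays.

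The comparison of Treg with unstimulated naive cells addresses how the 9 genes differ between these cell types. In WT 5 of the 9 were called, all higher in Treg (Uhrf1, Tet2, Mbd2, Dnmt3a and Mbd1), against 48.4% of all genes. Normexp, whose offset of 50 was set beside the array signals above, also called 5, but Mbd2, Dnmt3a and Mbd1 were not among them. It called Dnmt1 (-0.51, limma adjusted p = 0.011) and Uhrf2 (-0.57, limma adjusted p = 0.0167) lower and Mbd4 higher. Among all genes 18.9% were called higher and 29.4% lower, so 39.1% of the calls were higher; with scaling on the probes detected everywhere this share was 60.7% in WT, and in CKO it went from 40.9% to 58.2%. In CKO 3 of the 9 were called (Uhrf1 and Mbd1 higher, Mbd4 lower), against 28.3% of all genes. Replicate numbers paired the arrays in this CKO comparison, and with the replicate number as a block 5 were called, with Mbd2 higher (limma adjusted p = 0.0462) and Dnmt1 lower (limma adjusted p = 0.0165). The groups did not overlap in 34.8% of all genes in WT and 30.9% in CKO. The median difference over the 9 was 0.45 in WT and 0.20 in CKO, beside -0.09 and -0.07 over all genes. None of the 9 was called in the interaction of genotype and cell type by limma, against 0.394% of all genes, and 2 (Dnmt3a and Mbd4) had an unadjusted p under 0.05.

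Dnmt3a was higher in WT Treg (3.18, 3.39, 3.45 and 3.18) than in WT unstimulated cells by 0.80 ± 0.19 (limma adjusted p = 0.00239), with only WT unstimulated replicate 4 among the Treg values; under normexp it was 0.20 and not called (limma adjusted p = 0.571). In CKO the Treg arrays gave 2.79, 3.03, 3.21 and 3.24 and the difference was -0.01 ± 0.19. The other 2 probes gave 0.48 and 0.55 in CKO, the second called (limma adjusted p = 0.0331), so the probes did not agree there. The interaction was -0.81 ± 0.27 (limma adjusted p = 0.23) and -1.06 without WT unstimulated replicate 4 (limma adjusted p = 0.0162).

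Mbd2, the reader that recruits the NuRD corepressor complex, stood at 1.78, 1.71, 1.75 and 1.37 on the WT unstimulated arrays and 2.27, 2.64, 2.27 and 2.71 on the WT Treg arrays. It stood at 2.29, 2.09, 1.96 and 2.05 on the CKO unstimulated arrays and 3.00, 2.79, 2.10 and 2.40 on the CKO Treg arrays. The difference was 0.82 ± 0.20 in WT without overlap (limma adjusted p = 0.00217) and 0.48 ± 0.20 in CKO with overlap (limma adjusted p = 0.0741). Under normexp the WT difference was 0.29 and not called (limma adjusted p = 0.316). With stimulation the representative probe fell by 0.78 ± 0.20 in CKO (limma adjusted p = 0.00161; stimulated arrays 1.19, 1.35, 1.11 and 1.61). In WT it changed by -0.18 ± 0.20 (limma adjusted p = 0.449; stimulated arrays 1.99, 1.43, 1.10 and 1.38).

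The second Mbd2 probe, designed on another accession, gave a different picture. With stimulation it fell by 1.84 ± 0.15 in WT (limma adjusted p = 8.05e-10) and its change in CKO was -1.43 ± 0.15 (limma adjusted p = 4.94e-08). In stimulated cells it was higher in CKO by 0.80 ± 0.15 (limma adjusted p = 0.000899), where the representative probe gave -0.16 ± 0.20. The 2 probes correlated at r = 0.78 over the 24 arrays, and a level for Mbd2 as a whole cannot be read from them after stimulation. In unstimulated cells every CKO array of the representative probe lay above every WT one, but the difference was not called (0.45 ± 0.20, limma adjusted p = 0.113).

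Uhrf2 fell with stimulation in WT, from 2.86, 3.01, 3.06 and 2.69 to 2.49, 2.54, 2.49 and 2.34, without overlap (-0.44 ± 0.12, limma adjusted p = 0.00346). In CKO it stood at 2.51, 2.54, 2.67 and 2.82 before and 2.59, 2.53, 2.45 and 2.38 after (-0.15 ± 0.12, limma adjusted p = 0.299). A second probe on the same RefSeq transcript fell in both genotypes (-0.62 ± 0.10 in WT, -0.67 ± 0.10 in CKO), both called. That probe was also higher in Treg than in unstimulated cells, by 0.55 ± 0.10 in WT and 0.48 ± 0.10 in CKO, and the remaining probe, on a cDNA clone, was higher by 1.32 and 1.24. The representative probe gave 0.03 ± 0.12 and 0.20 ± 0.12 there and was not called. No Uhrf2 probe was called between the genotypes in any state.

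Mbd4, the mismatch glycosylase, was lower in CKO Treg (-1.97, -1.85, -1.92 and -1.64) than in CKO unstimulated cells (-1.08, -0.86, -0.89 and -1.19), by 0.84 ± 0.18 without overlap (limma adjusted p = 0.0018). In WT the arrays gave -1.46, -1.79, -1.59 and -1.27 unstimulated and -2.00, -1.59, -1.75 and -1.98 in Treg, a difference of -0.30 ± 0.18 (limma adjusted p = 0.173). Under normexp both signs turned, to 0.09 in CKO, not called, and 0.48 in WT, called higher in Treg (limma adjusted p = 0.0421). The part of the normexp offset of 50, set beside the array signals above, was not tested here. In unstimulated cells Mbd4 was higher in CKO than in WT by 0.52 ± 0.18 (limma adjusted p = 0.0484), a call that 8 of 13 other settings and leaving out any 1 of 6 arrays ended. With stimulation it changed by -0.06 ± 0.18 in WT and -0.28 ± 0.18 in CKO, neither called, and the WT stimulated arrays spread from -2.27 to -1.19.

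Tet2, the only eraser among the 9, had the widest spread between arrays of a group. Its representative probe stood at -1.87, -2.44, -0.66 and -1.57 on the WT unstimulated arrays and -1.32, -0.57, 0.80 and -0.48 on the WT Treg arrays. The groups overlapped, and the difference was 1.25 ± 0.51 (limma adjusted p = 0.0476), a call that leaving out any 1 of 6 arrays ended. It also ended under quantile normalization, with the authors' values, with array weights, without the filter and with only the compared arrays fitted (limma adjusted p = 0.0717 to 0.143). The second Tet2 probe gave 0.74 ± 0.25 (limma adjusted p = 0.0186). In CKO the Treg difference was 0.55 ± 0.51, and CKO against WT gave 1.07 ± 0.51 in unstimulated cells (limma adjusted p = 0.14), where the second probe gave 0.09. The 2 probes correlated at r = 0.48 over the 24 arrays. Stimulation changed neither probe past the threshold in either genotype.

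**Figure D5:**
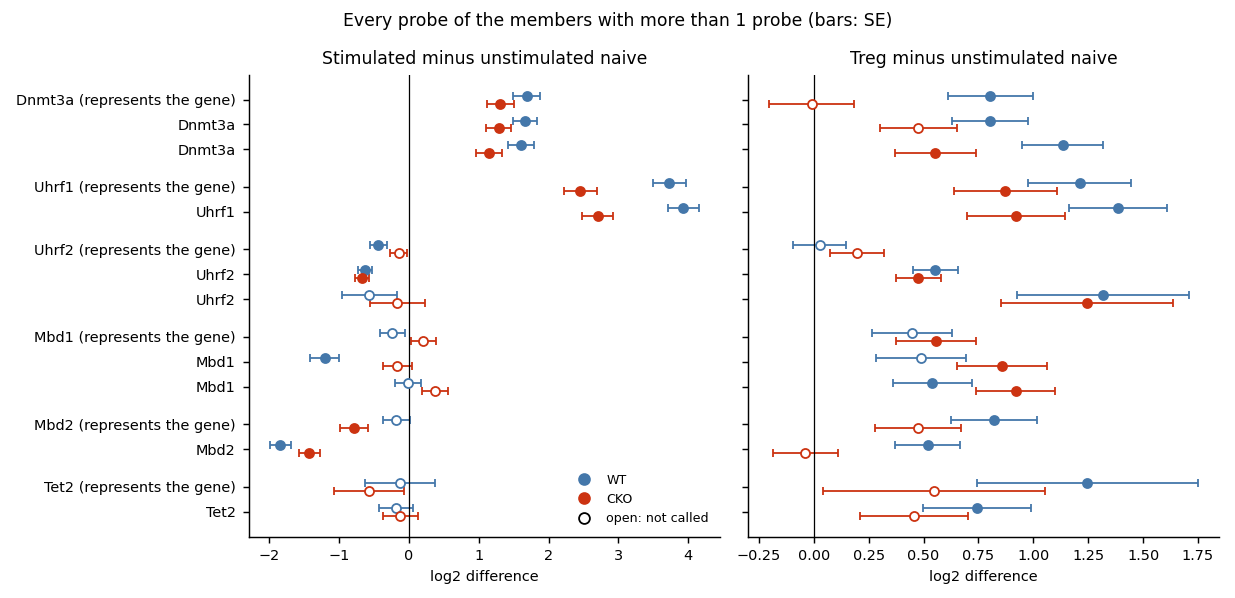
Every probe of the 6 genes with more than 1 probe: change with stimulation (left) and difference of Treg from unstimulated naive cells (right), log2 on the horizontal axes, in WT (blue) and CKO (red); bars are SE from a fit to all kept probes, and filled points passed the adjusted threshold. The Uhrf1 and Dnmt3a probes lay close together for stimulation, while the Mbd2 probes lay apart for stimulation and the Uhrf2 probes for Treg. In this fit the representative Mbd1 probe missed the threshold in WT Treg (limma adjusted p = 0.0502).

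Other genes of DNA methylation, 37 of a list of 40 that could be tested, were set beside the 9. Between the genotypes 3 were higher and 5 lower in CKO unstimulated cells (21.6% called, 18.7% of all genes), 4 higher and 7 lower in stimulated cells (29.7%, 24% of all genes), and 1 lower in Treg (2.70%, 4.31% of all genes). In unstimulated cells these were the dioxygenases Tet3 (-0.76 ± 0.22) and Tet1 (-0.68 ± 0.19), the NuRD subunit Mbd3 (-1.37 ± 0.43) and the dehydrogenase Idh2 (-0.91 ± 0.27) among those lower, and Atrx (0.81 ± 0.26), Mtr (0.63 ± 0.21) and Ogt (0.63 ± 0.22) higher. In stimulated CKO cells the remodeller Hells (-1.13 ± 0.36), the uracil glycosylase Ung (-1.06 ± 0.19), Trdmt1 (-0.65 ± 0.20) and Rbbp7 (-0.57 ± 0.16) were lower, and the methyl-CpG binders Zbtb4 (0.85 ± 0.14) and Zbtb38 (0.72 ± 0.15), Idh1 (0.75 ± 0.25) and Mbd6 (0.58 ± 0.16) were higher. The stimulated counts depended on the scaling: 3 were higher and 1 lower under quantile normalization, and 6 higher and 3 lower with scaling on the probes detected everywhere. The 1 gene called in Treg was Gadd45a (-0.66 ± 0.16). These counts also rested on single arrays. In unstimulated cells leaving out WT replicate 4 gave 8 higher and 8 lower, leaving out CKO replicate 4 gave 2 and 5, and leaving out any of the other 6 arrays gave 0 higher and 1 to 3 lower. In stimulated cells leaving out WT replicate 3 gave 3 higher and 2 lower, leaving out CKO replicate 3 gave 4 and 2, leaving out CKO replicate 2 gave 3 and 3, and the other 5 arrays gave 3 or 4 higher and 4 to 8 lower. In Treg the call was lost without WT replicate 1 or CKO replicate 2, and 2 were lower without WT replicate 4.

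Stimulation raised 13 and lowered 10 of the 37 in WT and raised 12 and lowered 10 in CKO (62.2% and 59.5% called, 61.9% and 60.2% of all genes). Gadd45a, a stress-response gene linked to demethylation, fell most (-4.20 ± 0.16 in WT, -3.68 ± 0.16 in CKO). The base-excision glycosylases Ung (3.16 ± 0.19 in WT, 2.54 ± 0.19 in CKO) and Tdg (2.38 ± 0.15 and 1.75 ± 0.15) and the methyl-cycle hydrolase Ahcy (2.27 ± 0.13 and 2.25 ± 0.13) rose. Hells rose by 2.66 ± 0.36 in WT, and Zbtb4 fell (-2.57 ± 0.14 in WT, -1.92 ± 0.14 in CKO). Between Treg and unstimulated naive cells 5 of the 37 were higher and 9 lower in WT, and 2 higher and 8 lower in CKO (37.8% and 27.0% called, 48.4% and 28.3% of all genes). Atrx was higher (1.55 ± 0.26 in WT, 1.18 ± 0.26 in CKO) and Idh2 lower (-2.06 ± 0.27 and -1.66 ± 0.27) in both genotypes.

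For the other 8 genes, the profiles most like theirs over the 24 arrays were found in the same way, as a description. Mbd1 was most like its neighbour Cfap53 (Pearson r = 0.96), then Pgpep1l and Kcnf1 (0.94 each). Dnmt3a was most like Nol10, Aatf and Utp4 (0.96 to 0.95), which are genes of ribosome production or the nucleolus, and Dnmt3b most like Npepl1, Atad3a and Eef1aknmt (0.98 to 0.97). Dnmt1 was most like Chd1l, Stard7 and Mthfd2 (0.93 each). Uhrf2 was most like the class I genes H2-Q5, H2-Q10 and H2-D1 (0.91 to 0.89), whose near-identical copies can share probes, and Mbd2 most like Tns1, Selenom and Tbc1d2 (0.92 to 0.90). The likeness was weaker for Mbd4 (Spry2, 0.80) and Tet2 (Mcub, 0.89). The points share 6 groups and 6 slides, so these values carry no test.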

How the data were processed

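Gene expression was measured on 24 single-colour Agilent arrays (41174 probes). The authors deposited scanner output from Agilent Feature Extraction 9.5, per the file headers, which holds a background-subtracted and detrended intensity for each spot, and a table of normalized intensity values on a linear scale, used here as an alternative after log2; no genome build is given in the sources used here. Log2 of the intensity minus the array's 75th percentile was computed, spots flagged as outliers were dropped, and 25198 probes were kept, those clearly over background on 3 or more arrays of some group. Probes were named by accession through RefSeq symbols, then by the name in the file. The brightest probe represented a gene. Limma 3.58.1 (R 4.3.3) fitted 6 group means to 16489 genes, tested 9 comparisons and adjusted by Benjamini-Hochberg. The limma fit was tested on simulated data, for CKO against WT in Treg only. Probe values come from the same fit to all kept probes. The number of arrays, 4 a group, limits the precision. Replicate numbers were taken from the labels; they were taken to pair arrays where every same-numbered pair's deviations correlated above 0.1, which held for Treg against naive unstimulated cells in CKO (r = 0.47, 0.45, 0.37 and 0.49) and in no other comparison, though every pair was also above 0 in 3 others. The members and gene lists were chosen with earlier results of these data known. The genes named are the 9 members with every probe, up to 4 called genes a direction in each list, and the 3 genes most like each member. Alternatives were other scalings, normexp with an offset of 50, other probe rules, slide, age or replicate terms, array weights and leaving out arrays; leaving out slide 1, whose CKO and WT unstimulated arrays differed most in B cell markers, and the look at neighbouring genes and promoter words were added after seeing the data. Scaling on the probes detected everywhere used the 75th percentile of probes well above background on all 24 arrays.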

Additional observations from a re-analysis of the deposited data

Results flagged for a closer look

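Dnmt1 in WT unstimulated replicate 4 stood at 1.68 where the other 3 arrays of its group gave 0.92 to 1.04, so the sample lay far from the others. The mouse of that array is labelled 7 weeks old and the other 3 are labelled 6 weeks; with age as a covariate the call for Dnmt1 with stimulation in WT held. Dnmt1 in WT Treg replicate 3 was 0.65 where the others gave 0.92 to 0.97. Mbd1 in CKO Treg replicate 4 was 4.85 where the others gave 4.62 to 4.65, a gap small beside the difference between the genotypes. A gap of this size relative to the range of a group of 4 is expected by chance in about 1 of 20 groups, and 54 groups were checked. The response of Uhrf1 to stimulation differed between CKO and WT by -1.27 in the limma interaction test (adjusted p = 0.0362).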

How the results depend on the processing

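Counts of called genes among the 9 varied with the processing, and what caused each change was not tested. Normexp called 0 in CKO against WT unstimulated cells, 0 in Treg and 0 in the genotype by stimulation interaction; over all genes it called 389, 82 and 71 where the main setting called 3088, 710 and 564. In CKO against WT unstimulated cells, 1 was called without the filter on dim probes, 2 with only the compared arrays fitted and 1 without slide 1. For the genotype by stimulation interaction 0 were called under quantile normalization, with the authors' values and without the filter, and 4 with array weights, which also called 1 in the interaction with cell type. For Treg against naive cells 3 were called in WT without the filter and with only the compared arrays fitted, and 5 in CKO under quantile normalization, scaling on the probes detected everywhere, the authors' values, array weights, the replicate block and with every probe as its own feature. Leaving out 1 array in turn gave 1 to 6 in unstimulated cells, 2 to 3 in stimulated cells, 1 in Treg, 5 for stimulation in WT, 4 in CKO, 3 to 5 for Treg against naive cells in WT, 2 to 4 in CKO, 0 to 2 and 0 to 1 in the interactions. Signs turned under normexp for Mbd1 (-0.17), Mbd4 (0.48) and Uhrf2 (-0.57) in WT Treg against naive cells and for Mbd4 in CKO (0.0896). Scaling on the probes detected everywhere moved the median of all genes by over 0.1, from -0.05 to 0.11 for CKO against WT after stimulation, and the share of higher calls from 48.2% to 69.5%. The replicate block elsewhere called Dnmt1 lower in stimulated CKO cells (adjusted p = 0.0388 by limma).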
